A study of Mus musculus with 16 samples.

Results

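The 10 transcription factors described here, Ikzf1, Ikzf3, Pax5, Ebf1, Spib, Pou2f2, Gata3, Runx3, Tbx21 and Eomes, were chosen as named regulators of the B, T and natural killer (NK) cell lineages and were matched by symbol to a table of 53465 genes. The choice was made with earlier results of these data known, so counts of these factors called are not independent of the data. All 10 were found, and all 10 passed the filter on low counts. They were measured by bulk RNA-seq in 16 MC38 tumors, each from a different mouse. MC38 is a mouse colorectal carcinoma cell line that is implanted into mice of the strain it came from. Here the cells were placed under the skin of the right flank of female C57BL/6 mice aged 6 to 8 weeks, and mice whose tumors had reached a set size on day 16 were assigned at random to an IgG control antibody or to aPD-1, an antibody against the checkpoint receptor PD-1. Both antibodies were given at 200 µg on days 16 and 20, and tumors were taken on day 21. The 8 IgG tumors form 1 group. The study divided the 8 aPD-1 tumors afterwards into 6 non-responders and 2 responders by CD8 T cell staining of the same tumors, so T cell genes are not independent of that division. RNA came from thick sections of the frozen part of each tumor and therefore held tumor cells, stroma and infiltrating cells together. In such samples, fewer cells of a type and less RNA per cell cannot be told apart.

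Lymphocyte identity is set by small sets of DNA-binding proteins that act in combination. Ikaros family zinc finger proteins are shared by B, T and NK cells; Ebf1 and Pax5 establish and hold B cell identity; Gata3, Runx3 and the T-box factors Tbx21 (T-bet) and Eomes direct helper, cytotoxic and NK cell fates. Several of these genes are also used outside lymphocytes: Ebf1 is made in fat and stromal cells, Runx3 in myeloid and epithelial cells, and Spib in plasmacytoid dendritic cells. Library totals ran from 26603449 to 39948866 counts. Mitochondrial genes took 7.60% of the counts in IgG replicate 1, 6.00% in non-responder replicate 9 and 5.74% in non-responder replicate 14, against 2.52% to 3.25% in the other 13 tumors. The labelled colorectal origin was not visible at the level of epithelial markers. The summed level of the 7 colon epithelium markers was 4.86 to 9.06 CPM (counts scaled to the size of each library) in IgG tumors, 4.58 to 11.6 CPM in non-responders, and 86.4 and 38.6 CPM in responder replicates 15 and 16, and Vil1 and Cdx2 were too low to be tested.

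The genes lie on chromosomes 2, 4, 7, 9 and 11 of GRCm38. Pax5 spans chr4:44524757-44710487 and Spib chr7:44525993-44532071, both on the minus strand, and Ebf1 spans chr11:44617317-45008091 on the plus strand. Tbx21 spans chr11:97098071-97115331 on the minus strand, and Ikzf3 chr11:98464902-98546031 on the same strand. Antisense or other genes on the opposite strand overlap 7 of the 10, the exceptions being Ikzf3, Spib and Tbx21. Promoter sequence, taken as the 250 bases before a RefSeq start on GRCm38.p6, was at hand for 9 members and 12 starts, with no entry for Ikzf3. Below are the promoters of Pax5 and Spib, the B cell factors with the largest increases, of Tbx21, which was almost equal in both responders, and the second start of Ebf1, which was already present in every tumor. Capitals mark matches to any of the motifs searched on both strands.
Pax5 promoter, chr4:44710695-44710944, minus strand: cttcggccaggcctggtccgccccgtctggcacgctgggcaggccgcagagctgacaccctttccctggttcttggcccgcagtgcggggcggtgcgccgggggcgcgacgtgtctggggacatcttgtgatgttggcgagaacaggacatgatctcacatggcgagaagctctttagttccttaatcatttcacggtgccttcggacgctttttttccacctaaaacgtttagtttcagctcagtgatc
Spib promoter, chr7:44532072-44532321, minus strand: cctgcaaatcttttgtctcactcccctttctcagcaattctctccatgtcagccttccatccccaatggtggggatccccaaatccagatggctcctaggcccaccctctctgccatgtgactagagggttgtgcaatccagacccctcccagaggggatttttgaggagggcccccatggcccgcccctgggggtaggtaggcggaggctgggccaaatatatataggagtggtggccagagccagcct
Tbx21 promoter, chr11:97115332-97115581, minus strand: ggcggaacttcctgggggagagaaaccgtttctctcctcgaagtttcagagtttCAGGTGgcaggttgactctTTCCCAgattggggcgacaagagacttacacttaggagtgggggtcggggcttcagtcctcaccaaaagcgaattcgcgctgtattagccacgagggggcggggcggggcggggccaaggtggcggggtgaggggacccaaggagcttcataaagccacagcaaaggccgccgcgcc
Ebf1 second promoter, chr11:44619978-44620227, plus strand: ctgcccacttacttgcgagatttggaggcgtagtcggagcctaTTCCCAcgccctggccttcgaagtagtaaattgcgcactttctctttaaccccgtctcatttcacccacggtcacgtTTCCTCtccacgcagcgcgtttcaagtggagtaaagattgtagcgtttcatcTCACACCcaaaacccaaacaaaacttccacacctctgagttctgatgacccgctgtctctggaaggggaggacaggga

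Motifs searched were the octamer ATTTGCAT, the Ets purine box GAGGAA, the palindromic EBF site, the Ikaros core TGGGAA, the Runx site TGTGGT, the GATA forms AGATAA and TGATAA, the T-box site GGTGTGA and the E2A type E box CAGGTG. No match was seen in the Pax5 or Spib window. Counted from the start, Tbx21 held an Ikaros core at -177 and an E box at -196. The second Ebf1 promoter held an Ikaros core at -207, an Ets box at -130 and a T-box site at -78. Across the 12 member promoters, the octamer, the EBF site and both GATA forms were found in 0, against 1.6%, 0.779%, 9.99% and 7.94% of 32851 promoters of the same length. An Ikaros core was found in 3 of 12 member promoters against 21.6% of all, and a Runx site in 3 of 12 against 14%. A match is a string of letters in this window and says nothing about binding.

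Responder tumors held more of most of these factors than non-responders. Calls needed an adjusted p below 0.05 (edgeR, quasi-likelihood, adjusted by Benjamini-Hochberg over 18251 genes) together with a log2 fold change beyond 1 in either direction. Of the 10 factors, 8 were called higher, against 12.5% of all genes tested, and 0 were called lower, against 0.663%. In 8 of 10, both responders lay above all 6 non-responders, against 21.5% of all genes. The median log2 fold change of the 10 was 1.98, and that of all genes tested was 0.02. The factors not called were Pou2f2 and Runx3. Levels of all factors in the 16 tumors are plotted by group.

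**Figure D1:**
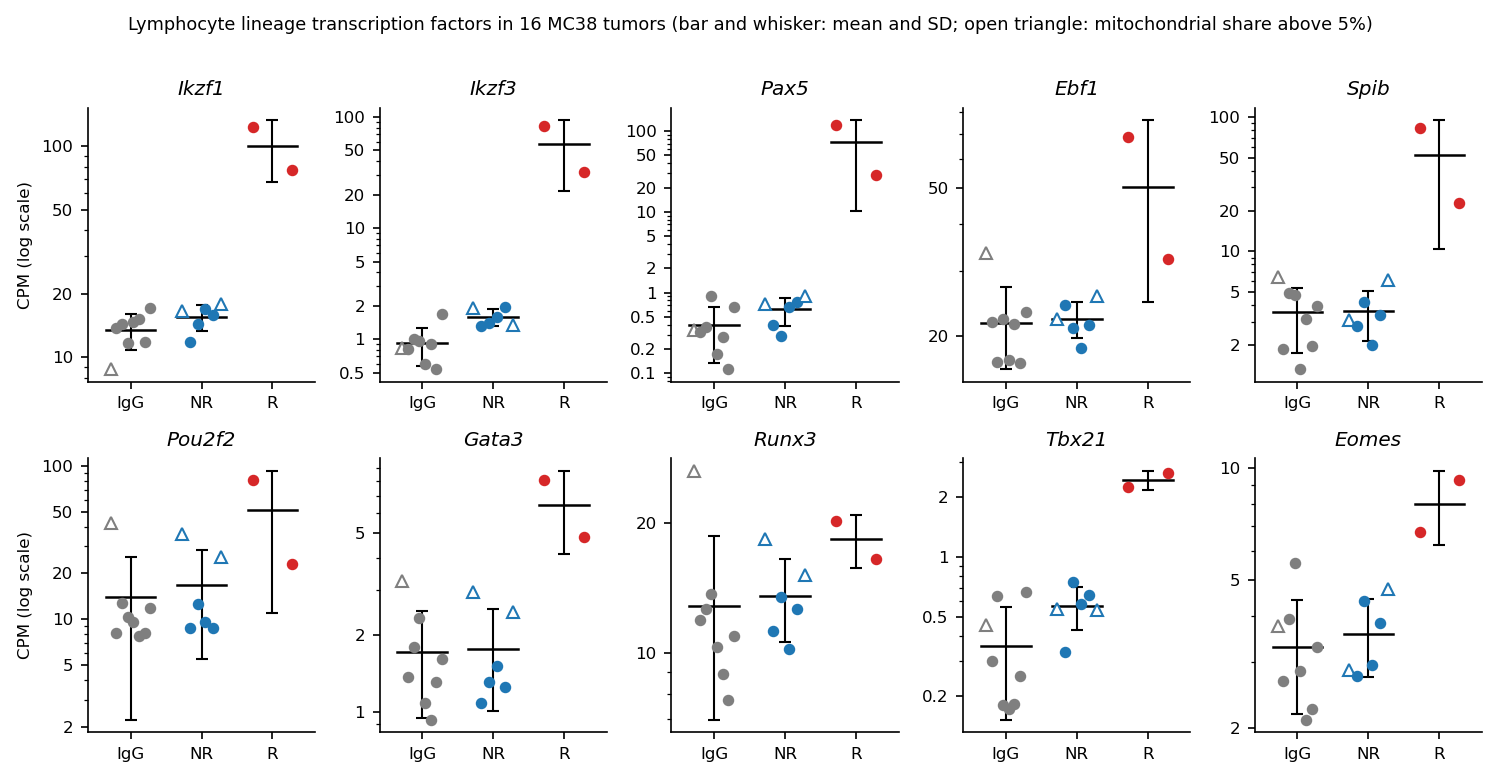
CPM of the 10 factors (y axes, log scale) in tumors given IgG and in non-responders (NR) and responders (R) to aPD-1. Points are tumors, the bar and whisker are the mean and SD, and open triangles are the 3 tumors whose mitochondrial share exceeded 5%. Ikzf1, Ikzf3, Pax5, Spib, Gata3, Tbx21 and Eomes show both responders above the other 14 tumors, whereas Runx3 in responders, at 20.2 and 16.5 CPM, lies within the range of the others.

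The Ikaros family members both rose. Ikzf1 encodes Ikaros, which is made throughout the lymphoid lineage. It stood at 122.9 CPM in responder replicate 15 and 76.9 CPM in replicate 16, while the 6 non-responders ran from 11.8 to 17.9 CPM with a median of 16.1, and the 8 IgG tumors from 8.74 to 17.1 CPM with a median of 14.1. No responder overlapped with the other tumors. The log2 fold change of responders over non-responders was 2.69 (SE 0.20, edgeR adjusted p = 1.1e-07). Ikzf3 encodes Aiolos, which is prominent in mature B cells and in activated T and NK cells. It was measured at 82.9 and 32.1 CPM in the 2 responders, at 1.31 to 1.95 CPM (median 1.5) in non-responders and at 0.534 to 1.69 CPM (median 0.872) in IgG tumors. Again the responders stood clear of all others. The increase over non-responders was 36.1-fold (log2 fold change 5.18, SE 0.33, edgeR adjusted p = 1.8e-08). Without responder replicate 15 its log2 fold change was 4.27, and without replicate 16 it was 5.65.

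Among the B cell factors, Pax5, Spib and Ebf1 rose and Pou2f2 was not called. Pax5, which keeps committed B cells in their lineage, was close to absent from most tumors. Its level was 117.7 and 28.7 CPM in responder replicates 15 and 16, 0.288 to 0.915 CPM (median 0.695) in non-responders and 0.112 to 0.899 CPM (median 0.335) in IgG tumors. Every responder value exceeded every other value by far. The log2 fold change over non-responders, 6.86 (SE 0.53, edgeR adjusted p = 1.5e-07), was the highest of the 10 factors and corresponds to 116-fold. It was 5.44 without responder replicate 15 and 7.5 without replicate 16. Spib, an Ets factor of B cells and plasmacytoid dendritic cells, was measured at 82.5 and 22.8 CPM in responders, 2.0 to 6.13 CPM (median 3.22) in non-responders and 1.32 to 6.46 CPM (median 3.52) in IgG tumors. Its log2 fold change was 3.87 (SE 0.49, edgeR adjusted p = 2.5e-05), with no overlap, and it was 2.6 without responder replicate 15 and 4.47 without replicate 16.

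Ebf1, the early B cell factor, behaved differently in that it was present in all tumors. Responder replicates 15 and 16 had 68.6 and 32.3 CPM, non-responders 18.6 to 25.6 CPM (median 21.9) and IgG tumors 17.0 to 33.6 CPM (median 21.7). Both responders were above all non-responders, but replicate 16 lay below the highest IgG tumor, which was replicate 1. Over non-responders the log2 fold change was 1.18 (SE 0.24, edgeR adjusted p = 0.00212), and without responder replicate 15 it was 0.47 (adjusted p = 0.462). Pou2f2 encodes Oct-2, an octamer-binding factor of B cells. It was measured at 80.8 and 23.0 CPM in responders, 8.72 to 35.8 CPM (median 11) in non-responders and 7.75 to 42.4 CPM (median 9.96) in IgG tumors, and responder replicate 16 fell within both ranges. Its log2 fold change over non-responders, 1.63 (SE 0.64, edgeR adjusted p = 0.0917), was not called. It was called without non-responder replicate 9, at 2.0 (adjusted p = 0.0364), without IgG replicate 1, at 1.55 (0.0352), and without all 3 tumors of high mitochondrial share, at 2.33 (0.00047), while without responder replicate 15 it was 0.38.

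Of the T and NK cell factors, 3 of 4 rose, by less than Pax5 and Ikzf3. Gata3, which directs type 2 helper T cells and innate lymphoid cells and is needed for T cell development, stood at 8.10 and 4.84 CPM in responders. Non-responders ran from 1.09 to 2.96 CPM (median 1.42) and IgG tumors from 0.934 to 3.27 CPM (median 1.49), so neither group reached the responders. The log2 fold change over non-responders was 1.87 (SE 0.42, edgeR adjusted p = 0.00417), and it was 1.37 (adjusted p = 0.209) without responder replicate 15. Runx3, a Runt factor of cytotoxic T and NK cells, was measured at 20.2 and 16.5 CPM in responders, 10.2 to 18.4 CPM (median 13) in non-responders and 7.76 to 26.5 CPM (median 11.4) in IgG tumors. The groups overlapped. Its log2 fold change, 0.44 (SE 0.34, edgeR adjusted p = 0.42), was not called, and without the 3 tumors of high mitochondrial share it was 0.58 (adjusted p = 0.0344), still below the threshold of size.

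Tbx21, the T-box factor of type 1 helper, cytotoxic and NK cells, was low everywhere. It reached 2.25 and 2.64 CPM in responder replicates 15 and 16, against 0.334 to 0.749 CPM (median 0.566) in non-responders and 0.172 to 0.665 CPM (median 0.277) in IgG tumors. Responders stood apart from both groups. Over non-responders Tbx21 had a log2 fold change of 2.10 (SE 0.45, edgeR adjusted p = 0.00294). Eomes, its relative in NK cells and memory or exhausted CD8 T cells, was measured at 6.74 and 9.31 CPM in responders, 2.76 to 4.74 CPM (median 3.40) in non-responders and 2.10 to 5.55 CPM (median 3.07) in IgG tumors, again without overlap. For Eomes the log2 fold change was 1.16 (SE 0.31, edgeR adjusted p = 0.0135). With a single responder left in the fit, and its spread taken from the other groups, Eomes was not called: the log2 fold change was 1.3 (adjusted p = 0.0722) with replicate 16 alone and 0.86 (0.185) with replicate 15 alone.

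Against IgG tumors, which share no mice with the non-responders but are compared with the same 2 responders, 9 of 10 factors were called higher, against 14.3% of all genes tested, and 0 were called lower, against 0.641%. Both responders lay above all 8 IgG tumors for 7 factors, against 19.3% of all genes. The median log2 fold change of the factors was 2.35, and that of all genes was -0.02. Values for Ikzf1, Ikzf3 and Pax5 were 2.9 (SE 0.18), 5.96 (SE 0.30) and 7.51 (SE 0.48). Without responder replicate 15 they were 2.45, 5.05 and 6.09, and Spib moved from 3.9 to 2.62. Pou2f2, at 1.91 (SE 0.60, edgeR adjusted p = 0.0304), was called, but not without responder replicate 15 (0.65, adjusted p = 0.769), without IgG replicate 5 (1.84, 0.05) or with no filter on low counts (1.84, 0.0786). Without responder replicate 15, Ebf1 (0.50) and Gata3 (1.42) were also lost, and without replicate 16 Eomes (0.98, adjusted p = 0.103) was lost. Runx3, at 0.52 (SE 0.32, adjusted p = 0.29), was the factor not called.

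Between non-responders and IgG tumors none of the 10 factors was called. Over all 18251 genes edgeR called 0.0% in either direction, 694 had an unadjusted p under 0.05, and DESeq2 called 4 of 30752 higher. All 10 log2 fold changes were above 0, against 48.7% of all genes, with a median of 0.17 against -0.01 for all genes, but the tumors are shared between genes and these are not 10 separate observations. Ikzf3 had the highest value, 0.78 (SE 0.25, edgeR adjusted p = 0.987), followed by Tbx21 at 0.68 (SE 0.34) and Pax5 at 0.65 (SE 0.43). Ebf1, Spib, Gata3, Runx3 and Pou2f2 changed sign when single tumors were left out.

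The comparison that followed randomisation, 8 aPD-1 against 8 IgG tumors, called 0 of the 10 factors, and edgeR called 0.0% of 15775 genes in either direction, while 1800 had an unadjusted p under 0.05 and DESeq2 called 107 of 18763 (0.57%) higher. For 8 factors the 2 responders were the highest of the 8 treated tumors, the exceptions being Pou2f2 and Runx3. Pax5 had a log2 fold change of 5.58 (SE 1.37, edgeR adjusted p = 0.223), Ikzf3 of 4.10 (SE 0.99, 0.223), Spib of 2.18 (SE 0.75), Tbx21 of 1.56 (SE 0.47, 0.243) and Ikzf1 of 1.47 (SE 0.47, 0.257). Runx3 had the smallest, 0.21 (SE 0.23). Without responder replicate 15, Pax5 was at 3.52, Ikzf3 at 2.68, Spib at 0.84 and Ikzf1 at 0.85. DESeq2 called Ikzf3 (2.53, adjusted p = 0.0217) and Pax5 (3.36, 0.037). When the 2 response groups were fitted apart and averaged with equal weight, 5 factors were called, against 6.77% of all genes, namely Ikzf1, Ikzf3, Pax5, Spib and Tbx21.

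**Figure D2:**
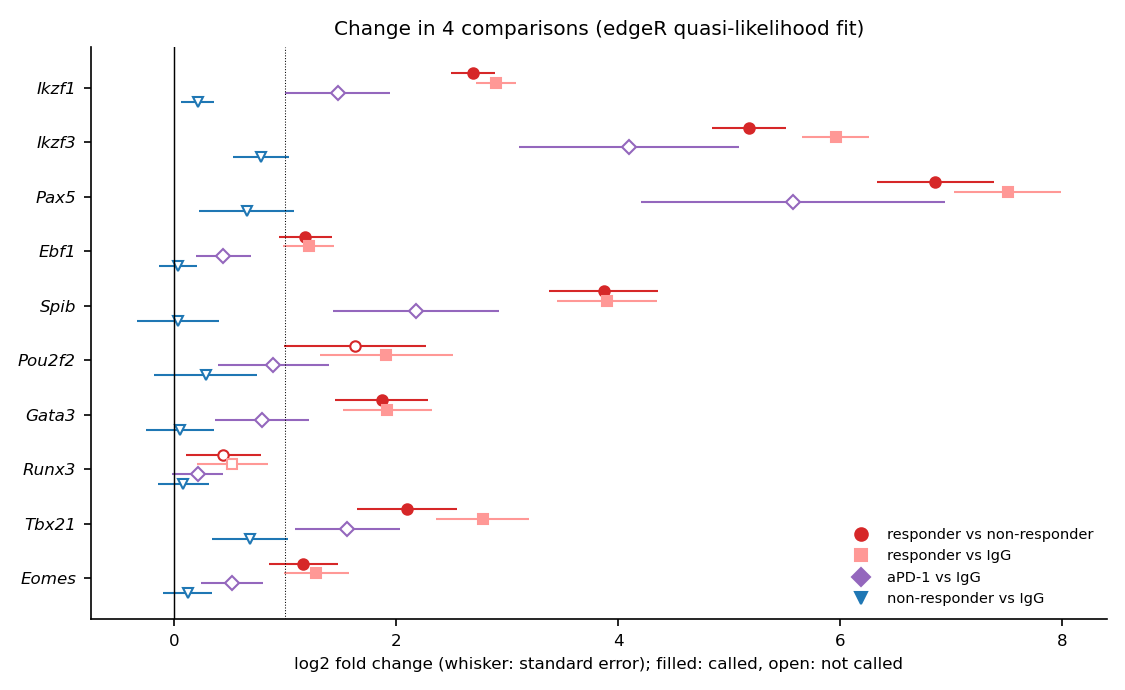
Log2 fold change (x axis) of the 10 factors in 4 comparisons, with whiskers for the standard error from the edgeR fit. Filled symbols were called and open symbols were not, and the dotted line marks a log2 fold change of 1. Pax5, at 6.86 and 7.51, and Ikzf3, at 5.18 and 5.96, lie farthest to the right in both responder comparisons, and every non-responder value lies below 1.

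The 2 responders were not alike. Ratios of replicate 15 to replicate 16 were 4.11 for Pax5, 3.61 for Spib, 3.52 for Pou2f2, 2.58 for Ikzf3, 2.12 for Ebf1, 1.67 for Gata3, 1.60 for Ikzf1 and 1.22 for Runx3. They were below 1 for the T-box factors, at 0.85 for Tbx21 and 0.724 for Eomes. The 4 B cell factors thus had ratios of 2.12 or more, and the 4 T and NK cell factors 1.67 or less. With 1 tumor on each side, this order has no replicate check. When the amount above the non-responder median was taken, a description chosen after the values were seen, the ratio was 4.19 for Pax5, 4.47 for Ebf1, 4.04 for Spib and 5.84 for Pou2f2, 1.96 for Gata3 and 2.04 for Runx3, and 0.809 for Tbx21 and 0.566 for Eomes.

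Markers of several cell types moved with these levels. All 10 B cell markers and all 10 pan-T cell markers were called higher in responders than in non-responders, with median log2 fold changes of 7.05 and 3.60. The summed B cell markers stood at 1361.9 and 369.8 CPM in responder replicates 15 and 16 and at 6.23 to 13.9 CPM in the other tumors, a ratio between the responders of 3.68. The pan-T cell markers summed to 255.6 and 234.5 CPM against 9.11 to 33.9 CPM, a ratio of 1.09, and the 8 NK cell markers to 22.4 and 59.7 CPM against 7.85 to 21.8 CPM, a ratio of 0.376. Lymph node stroma and high endothelial venule markers, 6 of 6 called, summed to 422.7 and 130.5 CPM against 0.19 to 4.58 CPM, and Glycam1, a ligand made by high endothelial venules, had 0 to 34 counts outside the responders and 1087 or more in them. Adipocyte markers, also 6 of 6, summed to 1200.7 and 217.9 CPM against 17.6 to 82.1 CPM. Colon epithelium markers were called in 3 of 5 tested, Krt8, Krt18 and Epcam. Fibroblast and pericyte markers were called in 1 of 8, Lum, macrophage and monocyte markers in 1 of 8, Mrc1, and keratinocyte markers in 0 of 5, against 12.5% of all genes called higher. Of 7 plasmacytoid dendritic cell markers, Siglech, Ccr9 and Ly6d were called higher and Cox6a2 lower. The part of these other tissues in the levels of the 10 factors was not tested.

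**Figure D3:**
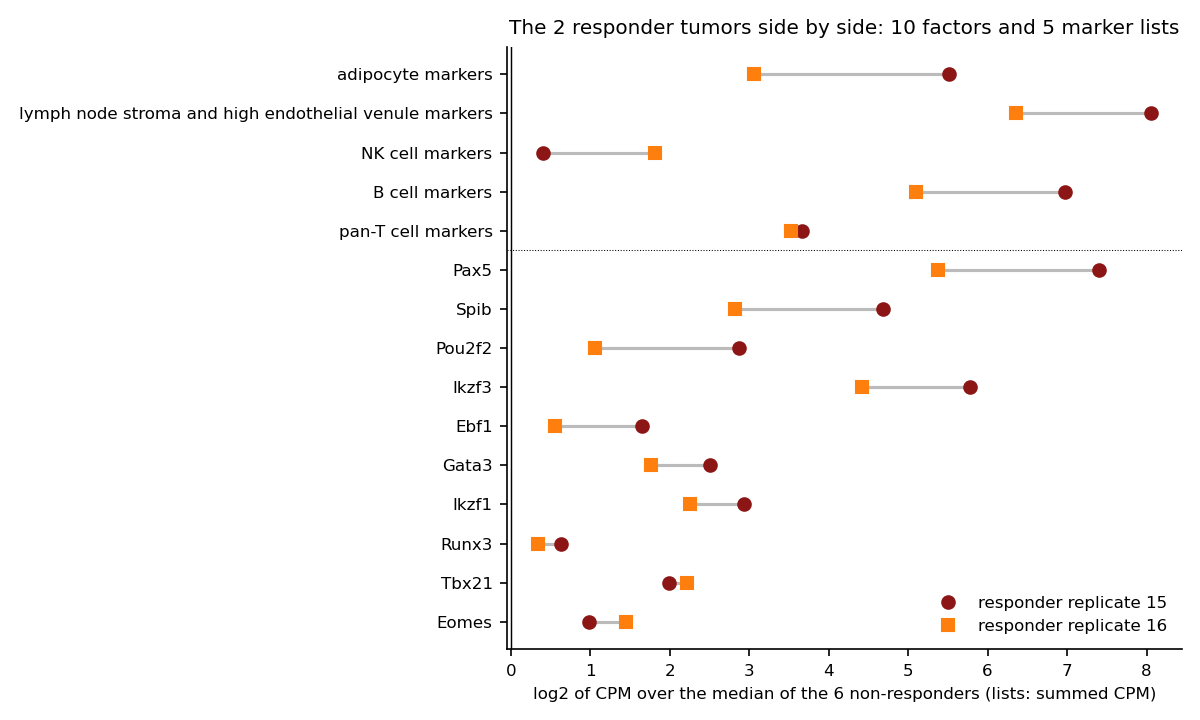
Log2 ratio of each responder to the median of the 6 non-responders (x axis) for the 10 factors, ordered by the ratio of replicate 15 to replicate 16, and for the summed CPM of 5 marker lists. Circles are responder replicate 15 and squares replicate 16. Circles lie to the right for Pax5, Spib and Pou2f2 and for the B cell, adipocyte and lymph node lists, and squares lie to the right for Tbx21, Eomes and the NK cell markers.

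Each factor was next set against a list of markers of a lineage in which it acts, within the same tumor. The value taken was the difference between its log2 CPM and the mean log2 CPM of the list. Because exon lengths differ between genes, the size of such a difference is no comparison of levels, and only its change between groups is read. None of 48 tests over 16 such ratios and 3 comparisons passed an adjusted p of 0.05 in exact permutation tests (two-sided). With 2 responders the smallest p allowed is 0.0357 against 6 tumors and 0.0222 against 8, the smallest adjusted p was 0.0659, and 27 tests had an unadjusted p below 0.05. For Pax5 against the B cell markers the mean difference was 0.01 (SD 0.14, n = 2) in responders, 0.02 (SD 0.34, n = 6) in non-responders and -0.12 (SD 0.50, n = 8) in IgG tumors, and the groups overlapped. Pax5 had at most 30 counts in any tumor outside the responders, where the prior count of 2 weighs on the ratio, and with a prior count of 0.5 its difference between responders and IgG turned from 0.13 to -0.08. For Ebf1 the mean difference was 5.12 (SD 0.62, n = 6) in non-responders and -0.30 (SD 0.54, n = 2) in responders, for Pou2f2 4.49 and -0.42, and for Spib 2.43 and -0.41. For these 3 factors the ranges of responders and of the other groups did not overlap. Ebf1 against Pax5 differed by -5.41 between responders and non-responders (exact permutation p = 0.0357, adjusted p = 0.0659).

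Ikzf1 and Ikzf3 are shared with B cells, but no ratio of either to the B cell markers was taken. Those markers had a median log2 fold change of 7.05 between responders and non-responders, against 5.18 for Ikzf3. The sign of the Ikzf3 ratio therefore holds for the pan-T cell list only. Against the pan-T cell markers, Ikzf3 differed by 1.39 between responders and non-responders, with both responders above all 6 (exact permutation p = 0.0357, adjusted p = 0.0659). The remaining differences were negative, at -0.95 for Ikzf1, -1.57 for Tbx21, -1.72 for Gata3, -2.44 for Eomes and -3.14 for Runx3, and responders lay below all non-responders for each of these except Ikzf1. Within the T-box pair, Eomes minus Tbx21 was 1.68 (SD 0.16, n = 2) in responders, 2.55 (SD 0.31, n = 6) in non-responders and 3.10 (SD 0.72, n = 8) in IgG tumors. Within the Ikaros pair, Ikzf3 minus Ikzf1 was -0.91 (SD 0.49, n = 2), -3.25 (SD 0.25, n = 6) and -3.83 (SD 0.44, n = 8). Between non-responders and IgG tumors that last ratio differed by 0.58 (exact permutation p = 0.016, adjusted p = 0.0659), with overlapping ranges.

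**Figure D4:**
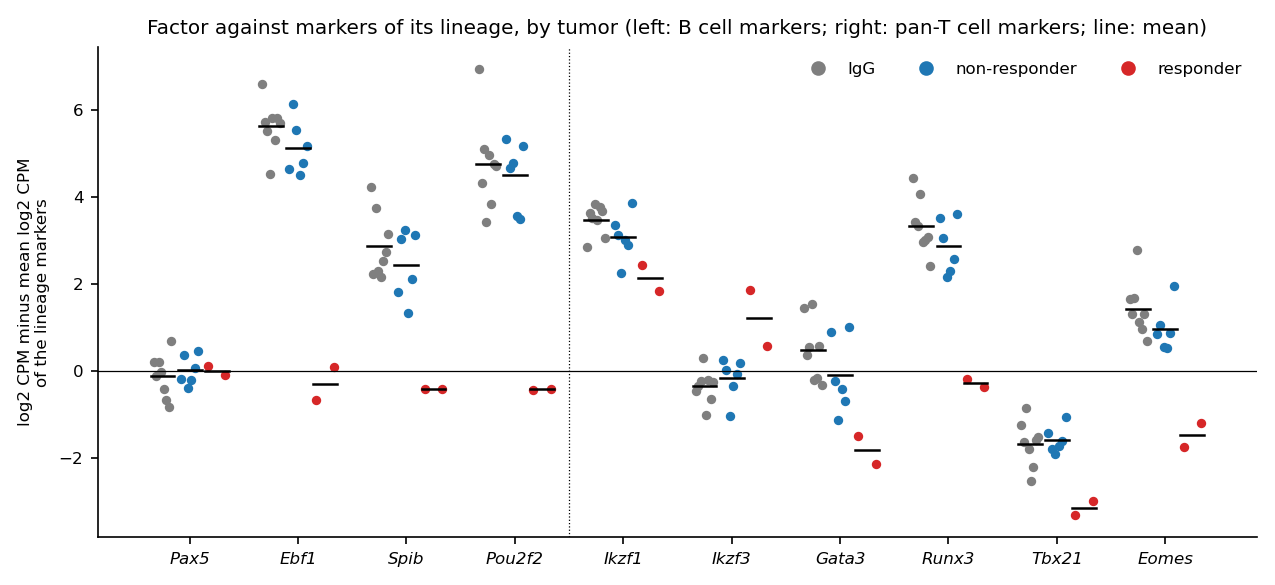
Log2 CPM of each factor minus the mean log2 CPM of a list of lineage markers (y axis) in every tumor. B cell markers were used on the left of the dotted line and pan-T cell markers on the right, also for Ikzf1 and Ikzf3. Points are tumors in IgG, non-responder and responder groups, and lines are group means. Pax5 has group means between -0.12 and 0.02, whereas Ebf1 has a mean of 5.12 in non-responders and -0.30 in responders.

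Levels of different genes can be compared only per length, and here the CPM of each gene was divided by the length of its exons to give RPKM. In IgG tumors and in non-responders the order was the same: Runx3, Ikzf1, Ebf1, Pou2f2, Spib, Eomes, Gata3, Tbx21, Ikzf3 and Pax5. The IgG means ran from 2.56 RPKM (SD 1.17, n = 8) for Runx3 to 0.0449 RPKM (SD 0.0295, n = 8) for Pax5, and the ranges of all neighbours in that order overlapped. In non-responders only Ikzf3 and Pax5, 0.181 and 0.0708 RPKM, were neighbours whose ranges did not overlap. In responders Spib came first at 18.4 RPKM (SD 14.7, n = 2), then Ikzf1 at 17.3 (SD 5.64), Pax5 at 8.27 (SD 7.12), Ikzf3 at 6.57 (SD 4.10), Pou2f2 at 6.29 (SD 4.96), Ebf1 at 5.17 (SD 2.62), Runx3 at 3.67 (SD 0.516), Eomes at 1.93 (SD 0.437), Gata3 at 1.63 (SD 0.580) and Tbx21 at 0.983 (SD 0.113). Ranges of neighbours separated in responders between Runx3 and Eomes and between Gata3 and Tbx21. Pax5, last in the other groups, was the third here, and Runx3, the first in the other groups, was the seventh.

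The 3 tumors with a high mitochondrial share were the 3 highest of 14 for Pou2f2, Gata3 and Runx3. Pou2f2 was measured at 42.4 CPM in IgG replicate 1, 35.8 CPM in non-responder replicate 9 and 25.5 CPM in non-responder replicate 14, against 7.75 to 12.8 CPM in the other 11. For Gata3 these were 3.27, 2.96 and 2.47 CPM against 0.934 to 2.34 CPM, and for Runx3 26.5, 18.4 and 15.2 CPM against 7.76 to 13.7 CPM. Tbx21, at 0.456, 0.549 and 0.542 CPM, lay inside the range of the other 11, from 0.172 to 0.749 CPM. The summed B cell markers of these 3 tumors were 8.74, 13.7 and 12 CPM, and their pan-T cell markers 14.5, 17.4 and 13.7 CPM, within the ranges of the other tumors. Among non-responders, replicate 9 had the highest B cell sum and replicate 14 the lowest pan-T cell sum. Fibroblast and pericyte markers, at 5945.6, 5695.7 and 5721.1 CPM, were not at the ends of their group ranges. Macrophage and monocyte markers summed to 1041.9, 1096.2 and 1179.2 CPM, with replicates 1 and 9 the lowest of their groups. Plasmacytoid dendritic cell markers summed to 743.9, 507.1 and 607.6 CPM, with replicates 1 and 14 the highest of their groups. That sum rested mainly on Bst2 and Tcf4. Their medians were 269.6 and 115.3 CPM in IgG tumors and 357.1 and 114.6 CPM in non-responders. The next marker, Cox6a2, had medians of 9.81 and 13.6 CPM in these groups. The sum is therefore not read as a measure of plasmacytoid dendritic cells. The part of RNA quality or tissue makeup in these values was not tested.

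**Figure D5:**
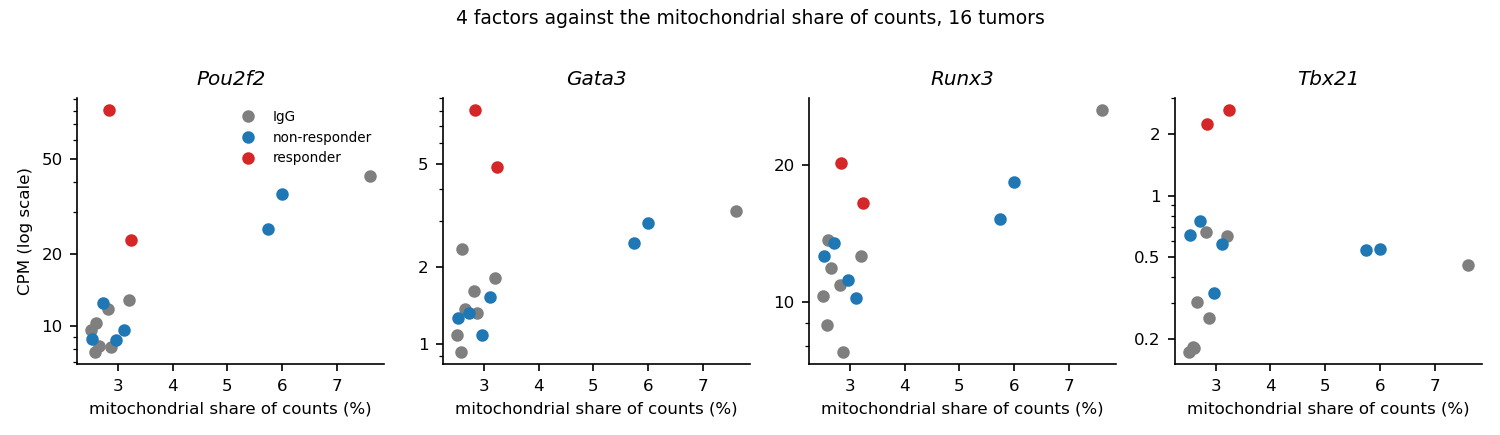
CPM of Pou2f2, Gata3, Runx3 and Tbx21 (y axes, log scale) against the mitochondrial share of counts in percent (x axes) in 16 tumors. Points are tumors, coloured by group. The 3 tumors on the right, at 5.74% to 7.60%, are the highest outside the responders for Pou2f2, Gata3 and Runx3 but not for Tbx21.

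Over the 14 tumors that were not responders, 7 of 45 pairs of factors were correlated at an adjusted p below 0.05 (100000 permutations, two-sided, Benjamini-Hochberg over 45), 17 had an unadjusted p below 0.05, and 39 had a Pearson r above 0. Leaving out IgG replicate 7 gave 3 pairs, leaving out non-responder replicate 14 gave 4 and replicate 9 gave 12, and 1 pair passed without the 3 tumors of high mitochondrial share. Pou2f2 and Runx3 had r = 0.89 (permutation p = 1e-05, the smallest that 100000 permutations give, adjusted p = 0.00045; Spearman rho = 0.80, p = 0.00094, adjusted p = 0.0211), and r was 0.68 without the 2 tumors farthest from the median. Within the groups it was 0.92 in 8 IgG tumors and 0.92 in 6 non-responders. Pou2f2 and Gata3 had r = 0.88 (permutation p = 3e-05, adjusted p = 0.000675; rho = 0.82, p = 0.00055), and Gata3 and Runx3 r = 0.83 (permutation p = 0.00012, adjusted p = 0.0018; rho = 0.75, p = 0.00347). Without the farthest 2 tumors these r were 0.73 and 0.64, and within IgG tumors and non-responders they were 0.83 and 0.96 for the former pair and 0.88 and 0.82 for the latter. Without the 3 tumors of high mitochondrial share the r of the 3 pairs fell to 0.59, 0.57 and 0.51 and no longer passed, with permutation p of 0.0548, 0.0663 and 0.106.

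Ikzf3 and Pax5 had r = 0.78 (permutation p = 0.00135, adjusted p = 0.0152; rho = 0.70, p = 0.00739), with 0.56 without the farthest 2 tumors, 0.81 within IgG tumors and 0.48 within non-responders. Ikzf3 and Tbx21 had r = 0.74 (permutation p = 0.00346, adjusted p = 0.0274; rho = 0.78, p = 0.00173), with 0.65 without the farthest 2 tumors, 0.62 within IgG tumors and 0.40 within non-responders. Over 11 tumors without high mitochondrial share these were 0.77 and 0.76, with adjusted p = 0.0958 for both in permutation tests. The other pairs were Ebf1 and Runx3 (r = 0.75, permutation p = 0.00366, adjusted p = 0.0274; rho = 0.60, p = 0.0276) and Spib and Eomes (r = 0.70, permutation p = 0.0054, adjusted p = 0.0347; rho = 0.76, p = 0.0022). Without the farthest 2 tumors their r were 0.33 and 0.78, and over the 11 tumors 0.38 and 0.67. Leaving out single tumors cost Spib and Eomes the threshold in 6 of 14 cases, Ikzf3 and Tbx21 in 4, Ebf1 and Runx3 in 3 and Ikzf3 and Pax5 in 1. Runx3 and Eomes were the pair that passed over the 11, with r = 0.87 (permutation p = 0.00062, adjusted p = 0.0279), against 0.54 over the 14. None of the pairs that passed was shared by both sets of tumors. Over the 14 tumors Ikzf1 was the exception among the factors, with r below 0 with Ebf1, Spib, Pou2f2, Gata3, Runx3 and Eomes. None of these passed. Without the 2 tumors farthest from the median of Ikzf1 these r lay between 0.32 and 0.54. Within IgG tumors they lay between -0.73 and -0.32, and within non-responders between -0.18 and 0.71. Over the 11 tumors they lay between -0.14 and 0.24. There Ebf1 also had r below 0 with Pou2f2 (-0.09) and Gata3 (-0.04). Levels of Pax5, Ikzf3 and Tbx21 in these tumors lay near or below 2 CPM, with few counts behind each value.

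As a description with no test, the genes whose log2 CPM was most like each factor over the 14 tumors were ranked over 13612 genes averaging 1 CPM or more. For Tbx21 they were Cd8b1 (r = 0.89), a chain of the CD8 coreceptor, Gbp2b (0.89) and Sdcbp2 (0.88), and over the 11 tumors without high mitochondrial share these r were 0.92, 0.88 and 0.92. For Ikzf3 they were Ms4a4b, Gvin1 and Fzd1 (0.86, 0.86 and 0.85), and for Eomes Cxcr4, Irx1 and Vgf (0.89 each). Over the 11 tumors the r were 0.86, 0.88 and 0.86 for Ikzf3 and 0.9, 0.91 and 0.9 for Eomes. Pou2f2 had Atp13a1, Znrf1 and Fendrr at r = 0.99, and Runx3 had Zmiz2 at 0.99 and Lrp10 and Mta1 at 0.98. Without the tumors of high mitochondrial share these fell to 0.94, 0.94 and 0.83 for Pou2f2 and 0.96, 0.95 and 0.94 for Runx3. The r of the top gene was 0.84 for Ikzf1 (Trim30b), 0.85 for Pax5 (Rab6b), 0.94 for Ebf1 (Rabgef1), 0.90 for Spib (Agbl5) and 0.94 for Gata3 (Wdfy1). Over the 11 tumors these r were 0.74, 0.85, 0.9, 0.86 and 0.8, in the same order.

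Relatives of the factors were measured as a list of 17 genes, of which Gata1 and Gata4 were too low to be tested. Between responders and non-responders 5 of 15 were called higher and 0 lower, against 12.5% and 0.663% of all genes tested. The median log2 fold change was 0.40 against 0.02 for all genes. The called genes were Pou2af1, the B cell coactivator of octamer factors, at 8.05 (SE 0.68, edgeR adjusted p = 3.8e-07), Spic at 4.51 (SE 0.38), Ebf2 at 2.82 (SE 0.61), Ikzf4 at 1.82 (SE 0.38) and Ikzf2, which encodes Helios, at 1.37 (SE 0.21). The Runx relatives were not called, with Runx1 at -0.21 (SE 0.20), Runx2 at -0.27 (SE 0.27) and their partner Cbfb at 0.02 (SE 0.22). Gata2 (-0.61, SE 0.23) and Ebf4 (-0.89, SE 0.49) had the lowest values and were not called either.

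Other factors of the B cell and plasma cell programs were called higher in 5 of 9, against 12.5% of all genes tested. Their median log2 fold change was 1.37. Bcl11a, a B cell and plasmacytoid dendritic cell factor, was at 5.44 (SE 0.37), Irf4 at 4.47 (SE 0.54), Bach2 at 3.76 (SE 0.26), Foxo1 at 1.84 (SE 0.27) and Irf8 at 1.37 (SE 0.24). Prdm1, the regulator of plasma cell differentiation, was not called at -0.25 (SE 0.35), nor were Bcl6, which drives germinal centre B cells, at 0.35 (SE 0.31), Xbp1 at 0.54 (SE 0.14, adjusted p = 0.00913, below the threshold of size) and Tcf3 at -0.38 (SE 0.27). Among 14 tested factors of T, NK and innate lymphoid cells, 9 were called higher and 0 lower, against 12.5% and 0.663% of all genes. Their median log2 fold change was 1.61. Bcl11b, which holds T cell identity, had the largest change at 4.55 (SE 0.37), and Tox (4.16, SE 0.61), Stat4 (2.70, SE 0.24), Satb1 (2.04, SE 0.31), Foxp3 (1.93, SE 0.38) and Tcf7 (1.81, SE 0.20) were called as well. Nfil3 was lowest at -0.08 (SE 0.34).

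Genes associated with the T cell factors were measured as well, in whole tumors, so the cells that made them are not known. Of 10 type 1 and cytotoxic genes, 5 were called higher in responders than in non-responders, against 12.5% of all genes tested. Their median log2 fold change was 1.41. Cxcr3, a chemokine receptor driven by T-bet, had the largest change at 3.52 (SE 0.33) and Cd8a followed at 3.13 (SE 0.46), while Prf1 at 0.66 (SE 0.58), Gzmb at 0.89 (SE 0.56) and Ifng at 1.23 (SE 0.60) were not called. In responder replicates 15 and 16 Prf1 stood at 9.64 and 21.5 CPM, Gzmb at 20.6 and 66.6 CPM and Ifng at 2.01 and 7.4 CPM. For each, replicate 15 lay within the non-responder range and replicate 16 above it. Against IgG tumors 9 of the 10 genes were called higher, all but Prf1, against 14.3% of all genes. Of 5 tested type 2 and Gata3 associated genes, 3 were called higher, against 12.5% of all genes: Il9r at 5.24 (SE 0.49), Ccr4 at 4.49 (SE 0.63) and Areg at 2.93 (SE 0.72). In responder replicates 15 and 16, Il9r stood at 30.6 and 4.53 CPM, Ccr4 at 2.07 and 1.97 CPM and Areg at 2.19 and 1.32 CPM. Il1rl1, the IL-33 receptor, was at -0.30 (SE 0.35), and Il4, Il5 and Il13 were too low to be tested. Of 8 NK cell markers, 3 were called higher, against 12.5% of all genes: Gzma at 2.36 (SE 0.64), Klrb1c at 1.57 (SE 0.35) and Ncr1 at 1.32 (SE 0.42). For Gzma only responder replicate 16, at 20.1 CPM, was high. Replicate 15, at 2.36 CPM, lay within the non-responder range of 0.851 to 3.46 CPM.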

How the data were processed

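Bulk RNA-seq was analysed in 16 MC38 tumors, grouped by the labels into 8 given IgG, 6 non-responders and 2 responders. Libraries were poly(A) selected and strand-specific; the strand setting used in counting is not given in the sources used here. The authors aligned reads with STAR 2.6 to GRCm38 and deposited RSEM 1.3.0 expected counts per gene. These were rounded to whole numbers. A further 92 entries naming no gene held at most 185 counts (0.000549% of a tumor's total) and were left out. Symbols, loci and exon lengths came from GENCODE and matched 53274 of 53465 identifiers. Totals ran from 26603449 to 39948866 counts, so a gene near 1 CPM rests on few counts. The tumors are separate mice, so p-values measure the spread between mice, and a call from 2 responders rests on those tumors.

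Genes were tested with edgeR 4.0.16 in R 4.3.3 (filterByExpr, TMM, robust quasi-likelihood fit of 3 groups, or 2 for aPD-1 against IgG) with thresholds of 0.05 on the adjusted p and 1 on the size of the log2 fold change. The standard error is the size of the log2 fold change divided by the square root of F. CPM used TMM-scaled totals, and log2 CPM a prior count of 2. Ratios were compared by exact permutation tests and correlations by 100000 permutations. Alternatives were DESeq2 1.42.0, median-of-ratios scaling, other filters and prior counts, 2-group fits, equal weighting of the response groups and leaving out each tumor. The fits were tested on simulated counts with known changes. At an adjusted p below 0.05, edgeR recovered 55% of 2-fold and 90% of 4-fold changes for responders against non-responders. For responders against IgG these were 50% and 87%, and for non-responders against IgG 74% and 95%. Promoters were RefSeq sequences of GRCm38.p6. Python 3.11.15, numpy 2.4.6, pandas 2.3.3, scipy 1.17.1 and matplotlib 3.10.9 were used. All 10 factors are named in every comparison, list genes by the largest and smallest change, and the 3 most alike genes by r; other list genes named were picked after seeing their values. The factors and gene lists were chosen with earlier results of these data known.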

Additional observations from a re-analysis of the deposited data

Results flagged for a closer look

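Single tumors that stood apart from their group were looked for in 52 groups of values, of which chance alone flags about 1 in 20, and 6 were found. In IgG replicate 1, the tumor with the highest mitochondrial share, Ebf1 reached 33.6 CPM with the next IgG tumor at 23.3, Pou2f2 42.4 CPM with the next at 12.8, and Runx3 26.5 CPM with the next at 13.7. Ikzf3 reached 1.69 CPM in IgG replicate 8, with the next IgG tumor at 1.01 CPM. The log2 ratio of Eomes to the pan-T cell markers was 2.76 in IgG replicate 4, with the next at 1.66. The log2 ratio of Pax5 to Tbx21 was -1.22 in non-responder replicate 11, with the next lowest non-responder at 0.16.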

How the results depend on the processing

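The number of factors called ranged, as single tumors were left out, from 5 to 9 for responders against non-responders and from 6 to 9 for responders against IgG; responder replicate 15 gave the lowest count in both. For aPD-1 against IgG it was 0, but 2 with DESeq2 and 5 with equal weights for the response groups. Correlated pairs numbered 7, from 3 without IgG replicate 7 to 12 without non-responder replicate 9, and 1 without the 3 tumors of high mitochondrial share, an alternative chosen after seeing the data; the cause was not tested. Differences between non-responders and IgG changed sign with single tumors left out, ranging from -0.01 to 0.16 for Ebf1, -0.16 to 0.26 for Gata3, -0.09 to 0.80 for Pou2f2, -0.03 to 0.33 for Runx3 and -0.19 to 0.21 for Spib, and were -0.20 for Gata3 and -0.01 for Spib without those 3 tumors. Log2 ratios that changed sign in the same way were, for responders against non-responders, Gata3 to Tbx21 (-0.63 to 0.34) and Pax5 to the B cell markers (-0.11 to 0.09) and, for non-responders against IgG, Pax5 to Tbx21 (-0.15 to 0.26), Pou2f2 to the B cell markers (-0.45 to 0.05) and Tbx21 to the pan-T cell markers (-0.03 to 0.21). Pax5 to the B cell markers for responders against IgG was -0.08 with a prior count of 0.5. No paired analysis was possible because the labels number the tumors singly and no number is shared between groups. Levels near 1 CPM limit what can be said of Pax5, Ikzf3 and Tbx21 outside the responders.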
